A study of Mus musculus with 60 samples.

Results

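The genes described here are 9 transcripts known for responding to glucocorticoids, to fasting, or to both: Nr3c1, Fkbp5, Tsc22d3, Zbtb16, Klf9, Igfbp1, Mt1, Mt2, and Errfi1. They were chosen by name, and all 9 were among the 15546 retained genes of the 55335 listed. RNA-Seq counts came from the kidneys of 60 male mice on a C57BL/6J background, in 12 groups of 5, one for each genotype and zeitgeber time (ZT, hours after lights on) at steps of 4 h. The cKOt mice were Bmal1lox/lox/Pax8-rtTA/LC-1 Cre animals, in which doxycycline turns on Cre recombinase in the renal tubule, where Pax8 is active. Control mice were Bmal1lox/lox littermates that lack the rtTA and Cre transgenes but carry the same floxed alleles. Both genotypes drank doxycycline at 2 mg/mL with sucrose for 2 weeks from 8 weeks of age, lived under 12 h of light and 12 h of darkness with food at all times, and were killed 1 month after the treatment ended, under ketamine and xylazine and after perfusion with PBS. Tissue is given as renal tubule in the labels, but the methods speak of pieces of frozen kidney, in which podocytes, vessels, and interstitial cells keep an intact Bmal1. Fewer cells of a type and less RNA per cell cannot be told apart in such samples.

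Glucocorticoids are released by the adrenal cortex in a daily wave that, in nocturnal rodents, crests around the start of the active night. In the target cell the hormone binds the glucocorticoid receptor, which Nr3c1 encodes, frees it from its chaperones, and moves it to DNA, where it raises genes such as Fkbp5, Tsc22d3, Zbtb16, and Klf9. Fasting lowers insulin and releases FOXO transcription factors, and Igfbp1 is a classic FOXO target. The metallothioneins Mt1 and Mt2 bind zinc and copper and respond both to metals and to glucocorticoids, and Errfi1 (also called Mig6) is a feedback inhibitor of the EGF receptor that hormones and stress induce.

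The libraries held 17791420 to 20906706 gene counts each. The targeted gene, Arntl (Bmal1), ranged from 1.93 to 57.1 CPM (counts scaled to 1000000 per library) in control mice, with its trough at ZT8 and ZT12, and from 14.6 to 26.8 CPM in cKOt mice, where no effect of time was detected (adjusted p = 0.189, edgeR quasi-likelihood test). Counts cover the whole gene and include transcripts that lack the deleted exons. Markers of the adrenal cortex, a gland that lies on the kidney, summed over 6 genes to 0.869 to 2.71 CPM in the control and 0.723 to 2.8 CPM in the cKOt libraries, with 1 gene retained and 0 called (0 also at an unadjusted p under 0.05 and in limma-trend and DESeq2), and Cyp11b2 was at 0 in all libraries. Markers of adipocytes summed to 30.5 to 77.4 and 31.9 to 108 CPM, with 0 of 5 called by any of these counts. The sums of 8 proximal tubule markers ran from 13400 to 18200 and from 12400 to 18000 CPM in the same order, with 3 markers called higher and 4 lower with Bmal1 deleted. Among cells outside the tubule, 4 of 5 endothelial and 4 of 5 macrophage markers were called lower in cKOt mice. So were 3 of 5 fibroblast and pericyte and 2 of 2 retained lymphocyte markers, and none of these sets had a marker called higher. Podocytes, also outside the tubule, had 0 of 4 markers called, with sums of 280 to 410 CPM in control and 289 to 384 CPM in cKOt mice. Over all retained genes, 23.2% were called lower and 26.8% higher. In the distal convoluted tubule, 3 of 4 markers were called higher. The sums of the sets with these calls overlapped between the genotypes. They were 294 to 354 and 251 to 350 CPM for endothelium, and 67.9 to 129 and 75.1 to 109 CPM for macrophages. Fibroblasts and pericytes had 53.9 to 193 and 67.7 to 165 CPM, and lymphocytes 1.06 to 3.39 and 0.635 to 1.74 CPM. The distal convoluted tubule had 1260 to 1760 and 1340 to 1990 CPM. The part of these cell types in the differences below was not tested.

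The genes span a wide range of levels. Per kilobase of annotated exon, the control means were 235 CPM for Errfi1, 51.7 for Klf9, 18.5 for Nr3c1, 16 for Fkbp5, 14.8 for Tsc22d3, 7.65 for Mt2, 7.31 for Mt1, 1.81 for Igfbp1, and 1.36 for Zbtb16. Single mice of neighbouring genes in this order overlapped, except that Errfi1 and Klf9 stood above the rest. The order of Mt2 and Mt1 rests on their annotated exon lengths of 588 and 1246 bases. Without scaling by length, Mt1 had 9.11 CPM and Mt2 4.5 CPM in control mice. Counts per mouse went down to 2 for Igfbp1, 17 for Mt2, and 18 for Zbtb16, and were at least 455 for Nr3c1, Fkbp5, Tsc22d3, Klf9, and Errfi1.

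**Figure D1:**
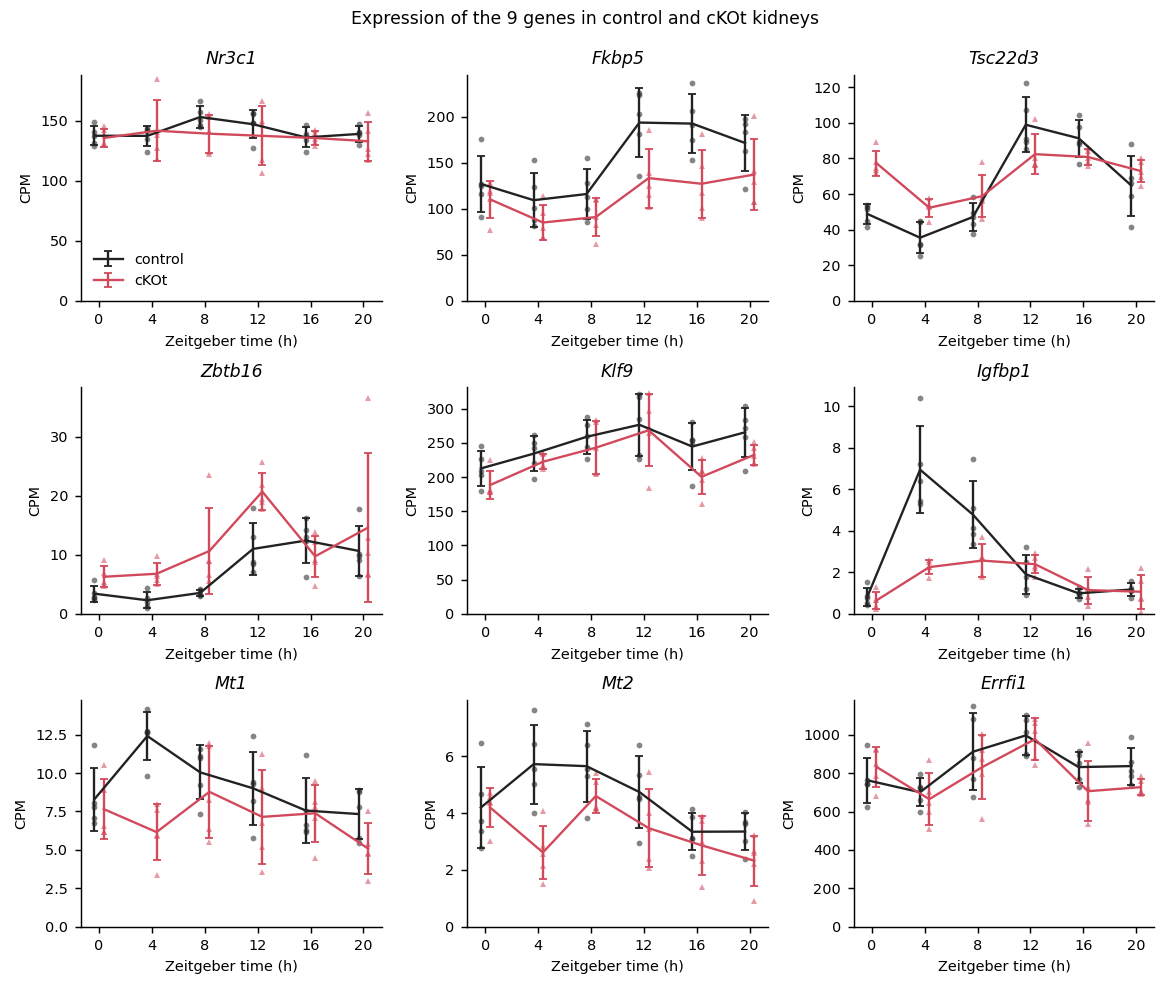
CPM (vertical axis, from 0) of each of the 9 genes against zeitgeber time in hours. Circles and black lines are control mice, triangles and red lines are cKOt mice, small symbols are single mice, and lines with bars are means ± SD of 5 mice. Igfbp1 in control mice stands at 6.93 CPM at ZT4 against 2.24 CPM in cKOt mice, and Tsc22d3 in cKOt mice runs above control mice at ZT0 and ZT4 and below them at ZT12.

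Averaged over the 6 times, 8 of the 9 genes differed between the genotypes. Zbtb16 and Tsc22d3 were higher in cKOt mice, and Fkbp5, Mt1, Mt2, Klf9, Igfbp1, and Nr3c1 were lower. This count has to be read against all retained genes, of which 50% were called, 26.8% higher and 23.2% lower. The median log2 fold change was -0.16 over the 9 genes and 0.01 over all retained genes. The test was edgeR's quasi-likelihood F test with 2 RUVs factors (estimates of unwanted variation from replicates) as covariates, with Benjamini-Hochberg adjustment over all genes and a threshold of 0.05. Calls of smaller differences depended on the covariates and on single replicates. Nr3c1 lost its call without RUVs factors (adjusted p = 0.308) and with the library batch in their place (adjusted p = 0.366), Igfbp1 with the batch (adjusted p = 0.0503), and Klf9 without replicate 3 of every group (adjusted p = 0.0782). Igfbp1 also lost it without replicate 2, 3, or 4 (adjusted p = 0.0673, 0.169, and 0.106), and Nr3c1 without replicate 1 or 2 (adjusted p = 0.0763 and 0.0685).

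Tsc22d3 (GILZ, ENSMUSG00000031431, chromosome X from 140539528 to 140600659 on the reverse strand of GRCm38) encodes a leucine zipper protein that glucocorticoids induce and that mediates part of their anti-inflammatory action. Its rhythm was flatter in cKOt mice. At ZT0 the 5 control mice had 53.7, 51.8, 41.2, 44.9, and 52.8 CPM, and the cKOt mice had 89.1, 78.1, 71.7, 74.4, and 73.6 CPM. At ZT4 the values were 31.4, 45, 44, 25, and 31.9 CPM in the control and 52.6, 57.8, 53.9, 44.1, and 53.2 CPM in the cKOt group. All 5 cKOt mice lay above every control mouse at ZT0, and 4 of 5 did so at ZT4. The difference was 0.66 ± 0.136 (log2, SE) at ZT0 (edgeR adjusted p = 0.000423) and 0.53 ± 0.147 at ZT4 (edgeR adjusted p = 0.00963). At ZT12 the direction was the opposite, with 99 ± 15.6 CPM (SD, n = 5) in the control and 82.4 ± 11.1 CPM in the cKOt group, 4 of them below every control mouse, but that difference did not pass (edgeR adjusted p = 0.164). The interaction of genotype with time was called for Tsc22d3 (adjusted p = 0.00194, edgeR), 1 of the 9 genes, where 3.08% of all genes passed. With the replicate number as a block it was called for Zbtb16 and Igfbp1 as well (edgeR adjusted p = 0.0342 and 0.037), and in limma-trend for Zbtb16 (adjusted p = 0.0257). Without replicate 1 of every group the interaction did not pass for Tsc22d3 (adjusted p = 0.0624).

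A fitted 24-h cosine gave Tsc22d3 a peak-to-trough difference of 1.44 ± 0.135 (log2, SE) in control and 0.59 ± 0.135 in cKOt mice, with peaks at ZT15.1 ± 0.36 h and ZT16.9 ± 0.882 h. This altered rhythm passed edgeR's test of the cosine terms (adjusted p = 0.000978), as 4.35% of all genes did, and the gene fell into model 5 of dryR (rhythms that differ between the genotypes), which holds 2.37% of all genes. In control means the highest time (ZT12) stood 2.79 times above the lowest (ZT4), and in cKOt mice 1.58 times.

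The window before the outermost of the 3 starts that RefSeq gives for Tsc22d3 is shown because it is the only window of these genes with a half-site of the glucocorticoid receptor, AGAACA or its reverse TGTTCT (in capitals). It covers chrX:140600660-140600772 of GRCm38.p6 on the reverse strand, up to the first base of the annotated exon.
Tsc22d3: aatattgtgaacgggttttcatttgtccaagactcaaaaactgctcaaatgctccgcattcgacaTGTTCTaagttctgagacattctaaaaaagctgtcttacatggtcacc
Of 32851 RefSeq windows of 250 bases before a start, 16.1% hold this half-site on either strand. The full palindrome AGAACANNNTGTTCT was in 0 of the 10 windows of the 7 genes that RefSeq covers here and in 3 of all windows. Windows for Zbtb16 and Nr3c1 were not used here. Letters in such a window do not show that a factor binds there, and the windows hold none of the distant enhancers through which the receptor often acts.

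Zbtb16 (PLZF, ENSMUSG00000066687, chromosome 9 from 48654297 to 48836222, reverse strand) encodes a zinc finger repressor and is strongly induced by glucocorticoids in many tissues. It had the largest difference of the 9 genes. At ZT4 the control mice had 0.982, 4.43, 1.37, 2.58, and 2.02 CPM, and the cKOt mice had 6.8, 9.87, 6.41, 5.7, and 5.09 CPM. At ZT8 the values were 3.13, 3.4, 4.13, 2.94, and 4 CPM in the control and 23.5, 5.47, 8.88, 8.86, and 6.52 CPM in the cKOt group. The groups did not overlap at either time, with fold changes of 3.45 (log2 1.79 ± 0.433, edgeR adjusted p = 0.00253) at ZT4 and 2.78 (log2 1.48 ± 0.384, edgeR adjusted p = 0.00338) at ZT8. At ZT12 the cKOt mice had 20.7 ± 3.18 CPM (SD, n = 5) and the control mice 11 ± 4.44 CPM, a fold change of 2 (edgeR adjusted p = 0.023). At ZT16 the levels were 9.73 ± 3.5 CPM in cKOt and 12.4 ± 3.8 CPM in control mice, which did not pass (edgeR adjusted p = 0.484). Over the 6 times the log2 fold change was 0.86 ± 0.151 (edgeR adjusted p = 3.46e-06).

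In control mice Zbtb16 peaked at ZT15.9 ± 0.456 h with a peak-to-trough difference of 2.77 ± 0.33, and in cKOt mice at ZT13.3 ± 0.998 h with 1.26 ± 0.33 (log2, SE). It was assigned to model 5, but neither the interaction (adjusted p = 0.0571) nor the test of the cosine terms (adjusted p = 0.0806) passed in edgeR. A single cKOt mouse at ZT20 (replicate 1) had 36.6 CPM, where the other 4 had 6.51 to 12.9 CPM. Without that mouse the adjusted p was 0.00219 for the interaction and 0.00112 for the cosine terms, the difference at ZT20 went from 0.40 to -0.20, and the mean difference was 0.74 (edgeR adjusted p = 4.69e-06). The same mouse had the highest Fkbp5, Klf9, Tsc22d3, Igfbp1, and Mt1 values of its group, at 201, 252, 80.2, 2.19, and 7.55 CPM, and the lowest Nr3c1 value, at 117 CPM. A cKOt mouse at ZT8 (replicate 1) also stood apart, with 23.5 CPM, and without it the difference at ZT8 was 1.01 and did not pass (edgeR adjusted p = 0.0552).

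Fkbp5 (ENSMUSG00000024222, chromosome 17 from 28399094 to 28517527, reverse strand) encodes an HSP90 cochaperone that lowers the receptor's affinity for hormone, and is itself a receptor target, so that it closes a short negative feedback loop. It was lower in cKOt mice by 0.40 ± 0.0748 on the log2 scale (a fold of 0.756, edgeR adjusted p = 9.54e-06), with group means below the control mean at 6 of 6 times. The widest gap was at ZT16, where it was -0.68 (log2), and it was -0.23 at ZT0 and -0.24 at ZT20, but no interaction with time was called (edgeR adjusted p = 0.809). At ZT16 the control mice had 175, 206, 237, 192, and 153 CPM, and the cKOt mice had 147, 181, 90.5, 101, and 117 CPM, with 4 of 5 below every control mouse (SE 0.184, edgeR adjusted p = 0.00499). At ZT12 the means were 194 ± 37.4 and 133 ± 32.1 CPM (edgeR adjusted p = 0.0415), a call that was lost without RUVs factors (edgeR adjusted p = 0.057), with the batch in their place (0.0641), with no filter on low counts (0.0513), and without replicate 1, 2, or 3 of every group (0.118, 0.117, and 0.194). Its rhythm was assigned to model 4 (the same rhythm in both genotypes, 25.2% of all genes), with peaks at ZT15.7 ± 0.645 h and ZT17 ± 0.876 h.

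The Fkbp5 window is shown because it holds an E-box, CACGTG, the letters that the CLOCK and BMAL1 pair is known to bind. It covers chr17:28486150-28486399 of GRCm38.p6 on the reverse strand, with the match (in capitals) 169 bases before the start.
Fkbp5: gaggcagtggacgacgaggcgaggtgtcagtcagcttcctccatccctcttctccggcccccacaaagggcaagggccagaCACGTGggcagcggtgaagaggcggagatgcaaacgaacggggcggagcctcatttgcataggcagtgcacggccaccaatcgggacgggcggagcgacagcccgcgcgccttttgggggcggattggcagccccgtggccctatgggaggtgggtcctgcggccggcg
An E-box was in 1 of the 10 windows of these genes and in 6.02% of all windows.

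Klf9 (ENSMUSG00000033863, chromosome 19 from 23141226 to 23168134, forward strand) encodes a Krüppel-like transcription factor that is raised by glucocorticoids and is also an output of the clock. It was lower in cKOt mice by a small margin. The 30 control mice ranged from 179 to 322 CPM (median 249) and the cKOt mice from 161 to 323 CPM (median 219), so that the genotypes overlapped almost wholly. The difference was -0.16 ± 0.0419 (log2, SE, edgeR adjusted p = 0.00154), and it passed by itself at ZT16, with 245 ± 34.8 CPM in the control and 200.4 ± 25 CPM in the cKOt group (edgeR adjusted p = 0.03), though not without RUVs factors (edgeR adjusted p = 0.102), with the batch (0.205), or without replicate 2, 3, or 5 (0.0977, 0.0975, and 0.155). An effect of time passed in cKOt mice (edgeR adjusted p = 0.00286) and did not in control mice (edgeR adjusted p = 0.13), and the rhythms themselves were not called different (edgeR adjusted p = 0.915).

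Nr3c1 (ENSMUSG00000024431, chromosome 18, reverse strand), the receptor itself, was the steadiest of the genes. Group means ran from 136 to 153 CPM in control and from 133 to 142 CPM in cKOt mice, a range of 1.12 and 1.07 times. Neither genotype showed an effect of time (edgeR adjusted p = 0.285 in control and 0.202 in cKOt mice), and no rhythm model reached the weight of 0.65. Its mean was lower in cKOt mice by 0.068 ± 0.026 (a fold of 0.954, edgeR adjusted p = 0.0269). This difference was smaller than the within-group SD on the log2 scale, which was 0.143 before and 0.0993 after the RUVs correction.

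Igfbp1 (ENSMUSG00000020429, chromosome 11 from 7197782 to 7202546, forward strand) encodes a secreted protein that binds insulin-like growth factors, which rises in fasting and is held down by insulin. In control mice it rose sharply in the early light phase, and in cKOt mice this rise was much smaller. At ZT4 the control mice had 6.38, 5.43, 7.19, 10.4, and 5.28 CPM, and the cKOt mice had 2.23, 1.7, 2.57, 2.47, and 2.24 CPM. At ZT8 the values were 3.36, 3.84, 5.09, 7.45, and 4.11 CPM in the control and 3.7, 2.71, 1.88, 2.7, and 1.78 CPM in the cKOt group. Every cKOt mouse was below every control mouse at ZT4, and 4 of 5 were at ZT8. The fold change was 0.338 at ZT4 (log2 -1.56 ± 0.33, edgeR adjusted p = 0.000437) and 0.548 at ZT8 (log2 -0.87 ± 0.312, edgeR adjusted p = 0.0408). The call at ZT8 did not hold without RUVs factors (edgeR adjusted p = 0.056), with the batch in their place (0.161), with no filter (0.0524), in limma-trend (0.116), or without replicate 2, 3, 4, or 5 of every group (0.062, 0.153, 0.162, and 0.0903), while that at ZT4 held in all alternatives. At ZT12 the values overlapped, at 1.90 ± 0.943 and 2.38 ± 0.439 CPM (edgeR adjusted p = 0.599).

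The day's range of Igfbp1 means was 8.63 times in control mice, from 0.803 CPM at ZT0 to 6.93 CPM at ZT4, and 4 times in cKOt mice, from 0.638 CPM at ZT0 to 2.56 CPM at ZT8. The fitted peak was at ZT6.72 ± 0.57 h in control and ZT8.84 ± 0.725 h in cKOt mice. The cosine terms differed between the genotypes (edgeR adjusted p = 0.0415), while the interaction over single times did not pass (edgeR adjusted p = 0.0666) and the model with a shared rhythm had the greatest weight (0.684). The call on the cosine terms was lost without RUVs factors (edgeR adjusted p = 0.0548), with the batch (0.0831), with no filter (0.0523), in limma-trend (0.291), without the 1 cKOt sample that the study marked for removal (0.0744), and without replicate 1, 3, 4, or 5 (0.203, 0.086, 0.218, and 0.109).

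The window before Igfbp1 is shown because insulin is known to repress this gene through the letters CAAAACA close to its start. It covers chr11:7197537-7197781 of GRCm38.p6 on the forward strand, with the match (in capitals) 108 bases before the RefSeq start.
Igfbp1: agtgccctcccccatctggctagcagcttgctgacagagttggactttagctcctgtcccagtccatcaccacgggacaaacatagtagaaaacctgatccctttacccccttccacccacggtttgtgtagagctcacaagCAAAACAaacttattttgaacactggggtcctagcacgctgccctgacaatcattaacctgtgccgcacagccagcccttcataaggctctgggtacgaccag
CAAAACA or its reverse was in 5.56% of all windows and in 1 of these 10. The related FOXO letters GTAAACA were in the window of Klf9, and in 3.17% of all windows.

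Mt1 (ENSMUSG00000031765, chromosome 8 from 94179082 to 94180327) and Mt2 (ENSMUSG00000031762, chromosome 8 from 94172664 to 94173568) lie side by side on the forward strand and encode similar small proteins. Reads of one could be hard to tell from those of the other, which was not tested. Both were lower in cKOt mice, by 0.35 ± 0.0616 (edgeR adjusted p = 4.49e-06) and 0.41 ± 0.0832 (edgeR adjusted p = 4.07e-05) on the log2 scale. The widest gap of CPM values was at ZT4. There Mt1 was at 14.2, 12.7, 9.83, 12.6, and 12.7 CPM in the control and at 5.94, 8.02, 5.9, 7.57, and 3.36 CPM in the cKOt group, with no overlap. Mt2 was at 5.02, 3.99, 5.55, 7.64, and 6.42 CPM in the control and at 2.54, 4.06, 2.82, 2.12, and 1.51 CPM in the cKOt group, 4 of them below every control mouse. The fitted folds were 0.659 for Mt1 (edgeR adjusted p = 0.00492) and 0.566 for Mt2 (edgeR adjusted p = 0.00509). Mt1 was called at ZT20 as well (log2 -0.63 ± 0.16, edgeR adjusted p = 0.00377), although not without RUVs factors (edgeR adjusted p = 0.22), with the batch (0.232), or without replicate 3 (0.0827).

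The control means of both genes peaked at ZT4 and the cKOt means at ZT8, yet the fitted cosines differed little, with peaks at ZT6.45 ± 0.886 h and ZT7.7 ± 1.05 h for Mt1 and at ZT6.95 ± 0.913 h and ZT6.88 ± 1.1 h for Mt2. Both were assigned to model 4, and the effect of time on Mt1 was not called in either genotype without RUVs factors (edgeR adjusted p = 0.0811 in control and 0.13 in cKOt mice). With the batch in their place it was not called either (0.0803 and 0.153), nor in cKOt mice without replicate 3, 4, or 5 of every group (0.0889, 0.0933, and 0.0514) or without 1 mouse at ZT12 (replicate 3, 0.0507).

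The pair of windows is shown because metallothionein promoters carry metal response elements, whose core is TGCACNC or TGCGCNC (in capitals, either strand). They cover chr8:94178839-94179081 for Mt1 and chr8:94172368-94172617 for Mt2, both of GRCm38.p6 on the forward strand.
Mt1: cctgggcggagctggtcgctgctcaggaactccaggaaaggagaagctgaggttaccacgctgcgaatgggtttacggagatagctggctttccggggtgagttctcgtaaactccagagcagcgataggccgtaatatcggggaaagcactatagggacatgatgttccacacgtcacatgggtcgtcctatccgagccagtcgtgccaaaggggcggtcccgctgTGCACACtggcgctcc
Mt2: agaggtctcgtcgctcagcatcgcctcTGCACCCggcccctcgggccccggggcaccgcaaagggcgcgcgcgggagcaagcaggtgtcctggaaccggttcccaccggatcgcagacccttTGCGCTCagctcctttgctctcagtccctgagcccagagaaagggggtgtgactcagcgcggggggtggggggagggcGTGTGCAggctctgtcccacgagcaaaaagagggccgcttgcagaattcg
In these windows Mt1 had 1 core, 23 bases before the RefSeq start, and Mt2 had 3, at 223, 128, and 50 bases. The annotated exons of Mt1 cover 1246 bases, from 94179082 to 94180327, and thus its whole locus. Sequence past the RefSeq starts was not searched, so these counts do not compare the full promoters of Mt1 and Mt2. A core was in 21.4% of all windows.

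Errfi1 (ENSMUSG00000028967, chromosome 4 from 150853919 to 150868892, forward strand) was the most abundant of the genes and the one whose mean was not called. The control mice ranged from 598 to 1148 CPM (median 803) and the cKOt mice from 510 to 1083 CPM (median 786). The difference was -0.098 ± 0.0501 (log2, SE, edgeR adjusted p = 0.0985), and it passed without the marked sample (edgeR adjusted p = 0.0404). Time had an effect in both genotypes (edgeR adjusted p = 0.0294 in control and 0.00444 in cKOt mice), with the highest mean at ZT12 and the lowest at ZT4 in each. The call was lost in control mice without replicate 2, 3, or 4 (edgeR adjusted p = 0.172, 0.0657, and 0.0978) and in cKOt mice without replicate 2 or 4 (edgeR adjusted p = 0.068 and 0.0702).

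**Figure D2:**
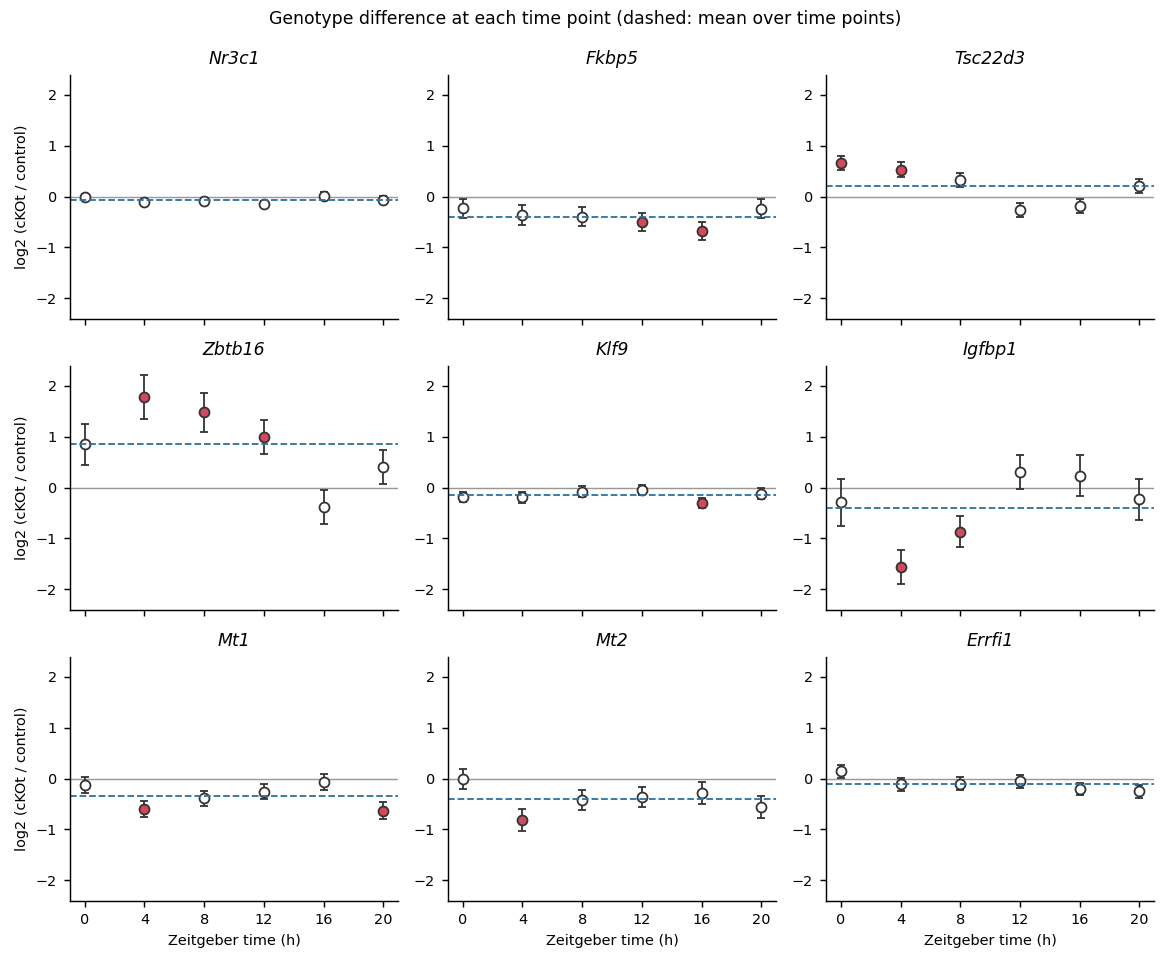
Fitted log2 ratio of cKOt to control mice (vertical axis) for each gene at each zeitgeber time in hours, with bars for the SE. Filled points passed an adjusted p of 0.05, open points did not, and the dashed line is the mean over the 6 times. Zbtb16 reaches 1.79 and Igfbp1 -1.56, both at ZT4, where 5 of the 9 genes were called.

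Of the single times, ZT4 had the most calls, with 5 of 9 genes (Tsc22d3 and Zbtb16 higher, Igfbp1, Mt1, and Mt2 lower) beside 12.5% of all genes. At the other times 1 or 2 of the 9 were called, namely 1 at ZT0 (12.1% of all genes), 2 at ZT8 (19.9%), 2 at ZT12 (21%), 2 at ZT16 (19.8%), and 1 at ZT20 (13.8%). The calls at ZT12 and ZT20 were 0 in edgeR without RUVs factors, where 2 and 1 of the 9 genes had an unadjusted p under 0.05, and limma-trend with RUVs factors called 2 at each. Leaving out 1 replicate of every group ended further calls, namely Tsc22d3 at ZT4 without replicate 1 (edgeR adjusted p = 0.106), Mt2 at ZT4 without replicate 4 (edgeR adjusted p = 0.168), Zbtb16 at ZT12 without replicate 2 or 5 (edgeR adjusted p = 0.141 and 0.118), and Fkbp5 at ZT16 without replicate 3 (edgeR adjusted p = 0.121). Tsc22d3 was called at ZT0 and ZT4, Igfbp1 at ZT4 and ZT8, Mt2 at ZT4, Fkbp5 at ZT12 and ZT16, and Klf9 at ZT16. The calls of Zbtb16 were at ZT4, ZT8, and ZT12, and those of Mt1 at ZT4 and ZT20. A change of the difference over time was called for Tsc22d3 in both tests of it and for Igfbp1 in the cosine terms. It was not called for Fkbp5 or Klf9 (interaction, edgeR adjusted p = 0.809 and 0.834).

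An effect of time was called for 7 of the 9 genes in control mice, all except Nr3c1 and Klf9, and for 8 in cKOt mice, all except Nr3c1, where 30.6% and 26.6% of all genes were called. By dryR, 8 of 9 had a rhythm in each genotype (33.9% of all genes in control and 31% in cKOt mice), and 5 of 9 did so without the RUVs correction, when Igfbp1, Mt1, and Errfi1 were not assigned. Taken over both genotypes, the fitted peaks of Igfbp1, Mt1, and Mt2 lay between ZT6.45 and ZT8.84. Those of Klf9 and Errfi1 lay around the onset of darkness, between ZT11 and ZT13.1. Those of Fkbp5, Tsc22d3, and Zbtb16 lay at night, between ZT13.3 and ZT17. The last 2 ranges meet within their errors, with Errfi1 at ZT13.1 ± 1.21 h in control and Zbtb16 at ZT13.3 ± 0.998 h in cKOt mice (SE).

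**Figure D3:**
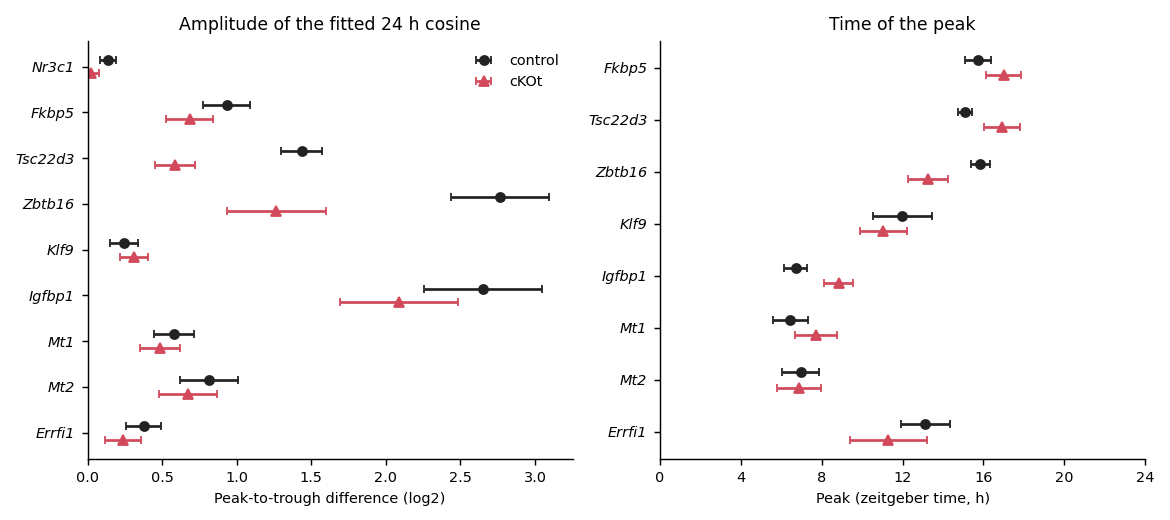
Left, peak-to-trough difference (log2) of a 24-h cosine fitted to each gene in control (black circles) and cKOt mice (red triangles), and right, the zeitgeber time of its peak in hours, with bars for the SE. Nr3c1 is left out on the right because its amplitude in cKOt mice was 0.025. The amplitudes of Tsc22d3 (1.44 and 0.59) and Zbtb16 (2.77 and 1.26) are the furthest apart relative to their errors.

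Genes whose levels over the 12 groups were most like those of a member were sought on group means of log2 CPM among 10865 genes. The groups differ in genotype as well as in time, so r takes in both. Sgk1, a kinase that glucocorticoids and mineralocorticoids induce in the distal nephron, was among the 3 most similar genes for both Tsc22d3 (r = 0.907) and Zbtb16 (r = 0.901). Zbtb16 was also followed by Slc7a6 (0.932) and Zhx3 (0.93), and Tsc22d3 by Mlxip (0.905) and Fhit (0.895). Closest to Fkbp5 were Polr3d (0.947), Yrdc (0.934), and Itprid2 (0.92), and closest to Klf9 were Fam117b (0.947), Ccni (0.927), and the clock gene Rora (0.915). Igfbp1 was most like Glt1d1 (0.954), Fam214b (0.94), and Pdcd4 (0.928). Mt1 was most like the water channel Aqp3 (0.942), Ccdc114 (0.914), and Gjb1 (0.907), and Mt2 like Ciao1 (0.927), Dis3l2 (0.865), and Slc41a1 (0.859). Errfi1 was nearest to Ube2q1 (0.895), Fbxw2 (0.884), and Ipo5 (0.848), and Nr3c1 to Fam81a (0.87), Phyhipl (0.854), and Map2k6 (0.845). These correlations describe the 12 means of the same libraries and carry no test.

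The mice of one group also differ among themselves, and 36 pairs of the 9 genes were compared on log2 CPM after subtraction of the group mean, over 60 mice. The Pearson correlation passed for 3 pairs in permutations within groups (two-sided, 100000 resamples, adjusted over the 36 pairs), and the median r over the pairs was -0.0112. Mt1 and Mt2 moved together, with Pearson r = 0.654 (permutation p = 1e-05, the smallest that the resamples can give, adjusted p = 0.00018) and Spearman rho = 0.616 (permutation p = 2e-05, adjusted p = 0.00072). Mice with less Nr3c1 had more Mt1 (r = -0.651, permutation p = 3e-05, adjusted p = 0.00036, and rho = -0.572, permutation p = 7e-05, adjusted p = 0.00096) and more Mt2 (r = -0.617, permutation p = 1e-05, adjusted p = 0.00018, and rho = -0.542, permutation p = 8e-05, adjusted p = 0.00096). Without the 2 mice farthest from the median of the first gene, r was 0.621, -0.57, and -0.552. Within the 6 library batches r ran from 0.349 to 0.795 for Mt1 and Mt2, from -0.851 to -0.46 for Nr3c1 and Mt1, and from -0.737 to -0.316 for Nr3c1 and Mt2.

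These correlations were smaller after the RUVs correction, at 0.335, -0.189, and -0.295, and then 0 of 36 pairs passed, with 9 at an unadjusted p under 0.05 in the same permutation test. The correction removed 66% of the within-group variance of Mt1, 51.7% of that of Nr3c1, and 41.2% of that of Mt2, against 1.24% for Tsc22d3 and 1.95% for Igfbp1. Between the RNA integrity number and the genes, over 9 relations, r was -0.0176 for Nr3c1 and -0.114 for Mt1 (permutation p = 0.923 and 0.472, adjusted p = 0.923 for both, rho = 0.00025 and -0.0516, permutation p = 0.999 and 0.705, adjusted p = 0.999 for both, and r = -0.024 and -0.0128 without the 2 mice farthest from the median). Within batches these r values ran from -0.646 to 0.489 and from -0.411 to 0.407. The largest r of the 9 was 0.228 for Tsc22d3, followed by 0.206 for Zbtb16. Neither passed (permutation p = 0.0947 and 0.122, adjusted p = 0.549 for both, rho = 0.171 and 0.159, permutation adjusted p = 0.946 for both). With the integrity number regressed out, r between Nr3c1 and Mt1 was -0.657. The receptor targets Fkbp5 and Zbtb16 had r = 0.393 and Fkbp5 and Klf9 0.377, neither of which passed by r (adjusted p = 0.0551 for both in permutations). By Spearman's rho, Fkbp5 and Klf9 passed (0.41, permutation adjusted p = 0.0314), and Fkbp5 and Zbtb16 did not (0.339, permutation adjusted p = 0.0896). Zbtb16 and Mt2 also passed by rho (0.383, permutation adjusted p = 0.0385) but not by r (0.297, permutation adjusted p = 0.222). For Tsc22d3, r was 0.0874 with Fkbp5 and -0.0124 with Zbtb16.

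**Figure D4:**
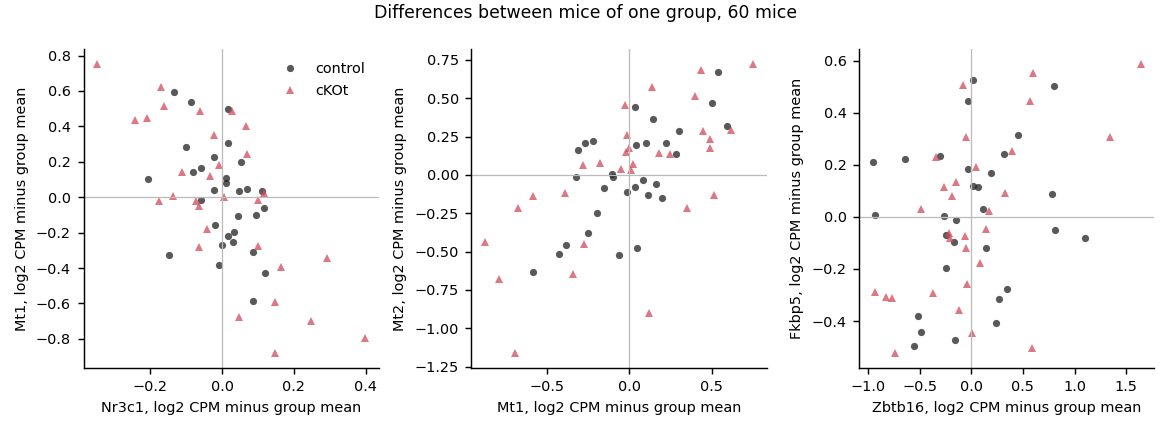
Each symbol is 1 of 60 mice (black circles control, red triangles cKOt), placed by its log2 CPM minus the mean of its group for 2 genes. Mt1 falls as Nr3c1 rises (left, r = -0.651), Mt2 rises with Mt1 (middle, r = 0.654), and Fkbp5 against Zbtb16 (right) has r = 0.393.

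Around the 9 genes, 6 lists of related genes were counted on the mean difference between the genotypes, of which 26.8% of all genes were higher and 23.2% lower in cKOt mice. The median log2 difference of the lists lay between -0.10 and -0.01, beside 0.01 over all genes. The machinery that makes, carries, and receives the hormone signal had 3 higher and 11 lower of 22 genes. Hsd11b1, the enzyme that regenerates active glucocorticoid from its inert form inside cells, went from 315 ± 71 CPM (SD, n = 30) in control to 86 ± 14 CPM in cKOt mice (log2 -1.87 ± 0.0748, adjusted p = 1.85e-28 in edgeR). Abcb1a and Abcb1b, which encode efflux pumps that carry steroids among many substrates, went in opposite directions, with -0.59 (edgeR adjusted p = 7.69e-09) and 1.08 (edgeR adjusted p = 3.37e-16). Whether these related paralogs share reads was not tested. Hsp90aa1, a chaperone of the receptor, was lower by 0.45 (edgeR adjusted p = 1.86e-11), while Nr3c2, the mineralocorticoid receptor, and Nrip1, a corepressor, were higher by 0.12 (edgeR adjusted p = 0.00503) and 0.13 (edgeR adjusted p = 0.00524).

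Among 29 retained further targets of the receptor, 6 were higher and 12 lower in cKOt mice, with a median of -0.10 (log2), and without replicate 3 of every group 9 were called in place of 18. Cdkn1a (p21), an inhibitor of the cell cycle, rose from 5.87 ± 3.44 to 17.7 ± 5.95 CPM (SD, n = 30, log2 1.77, edgeR adjusted p = 2.81e-23). Angptl4, a secreted inhibitor of lipoprotein lipase that fasting also induces, fell from 34.4 ± 10.1 to 12.3 ± 10.2 CPM (log2 -1.62, edgeR adjusted p = 8.29e-13). G6pc, the last enzyme of gluconeogenesis, was higher (0.42, edgeR adjusted p = 1.25e-07), as was the cytokine receptor Il1r1 (0.35, edgeR adjusted p = 2.62e-13), and Usp2, a clock-linked deubiquitinase, and Mfsd2a, a lipid transporter, were lower (-0.41, edgeR adjusted p = 3.16e-13, and -0.58, edgeR adjusted p = 0.000203). An interaction with time was called for 3 of the 29, beside 3.08% of all genes. In the other lists it was called for 4 of 27 genes of fasting and insulin or IGF signalling, 2 of 28 paralogs, and 1 of 24 genes of metal handling. It was called for 0 of 22 genes of the hormone machinery and 0 of 23 of the EGF receptor list.

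The list of fasting and insulin or IGF signalling had 9 higher and 11 lower of 27 retained genes. Cpt1a, which carries fatty acids into mitochondria, was lower by 0.42 (edgeR adjusted p = 5.73e-19), as were the binding protein Igfbp4 (-0.33, edgeR adjusted p = 1.56e-13) and the asparagine synthetase Asns (-0.56, edgeR adjusted p = 6.43e-09). The relatives of Igfbp1 did not move as one, since Igfbp7 and Igfbp2 were higher by 0.28 (edgeR adjusted p = 3.92e-17) and 0.70 (edgeR adjusted p = 0.000172).

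Of 24 retained genes of metal handling besides the metallothioneins described, 8 were higher and 7 lower. Hmox1, which breaks down haem, was lower by 0.98 (edgeR adjusted p = 3.32e-16), the zinc exporter Slc30a2 by 0.27 (edgeR adjusted p = 1.18e-06), and the copper pump Atp7b by 0.46 (edgeR adjusted p = 2.26e-10), while its relative Atp7a and the importers Slc39a5 and Slc39a8 were higher by 0.22 (edgeR adjusted p = 0.00217), 0.38 (edgeR adjusted p = 1.27e-08), and 0.24 (edgeR adjusted p = 1.5e-10). The EGF receptor and its feedback inhibitors, the setting of Errfi1, had 4 higher and 3 lower of 23 retained genes. Erbb2, Cblb, and Erbb3 were higher by 0.34 (edgeR adjusted p = 1.25e-11), 0.20 (edgeR adjusted p = 1.63e-06), and 0.11 (edgeR adjusted p = 0.0462). Spry4, Dusp4, and Lrig3 were lower by 0.30 (edgeR adjusted p = 4.75e-05), 0.23 (edgeR adjusted p = 0.000504), and 0.098 (edgeR adjusted p = 0.0125). Cblb counts among the inhibitors of this list, so inhibitors were called in both directions, and 16 of the 23 genes were not called.

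Of 28 retained paralogs of the 9 genes, 4 were higher and 11 lower. Tsc22d1, at 285 ± 43.6 CPM in control mice, was lower by 0.36 (edgeR adjusted p = 2.38e-14), the direction opposite to that of Tsc22d3, and Tsc22d4 was higher by 0.086 (edgeR adjusted p = 0.00351). Klf13 and Klf10 were lower by 0.37 (edgeR adjusted p = 4.44e-16) and 0.32 (edgeR adjusted p = 0.00576), on the side of Klf9. Fkbp3 and Fkbp14, immunophilins like Fkbp5, were higher by 0.091 (edgeR adjusted p = 0.0028) and 0.16 (edgeR adjusted p = 9.44e-05). On the side of Fkbp5 were Fkbp2 (-0.16, edgeR adjusted p = 1.86e-05), Fkbp9 (-0.084, edgeR adjusted p = 0.000196), and Fkbp11 (-0.21, edgeR adjusted p = 0.0262).

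**Figure D5:**
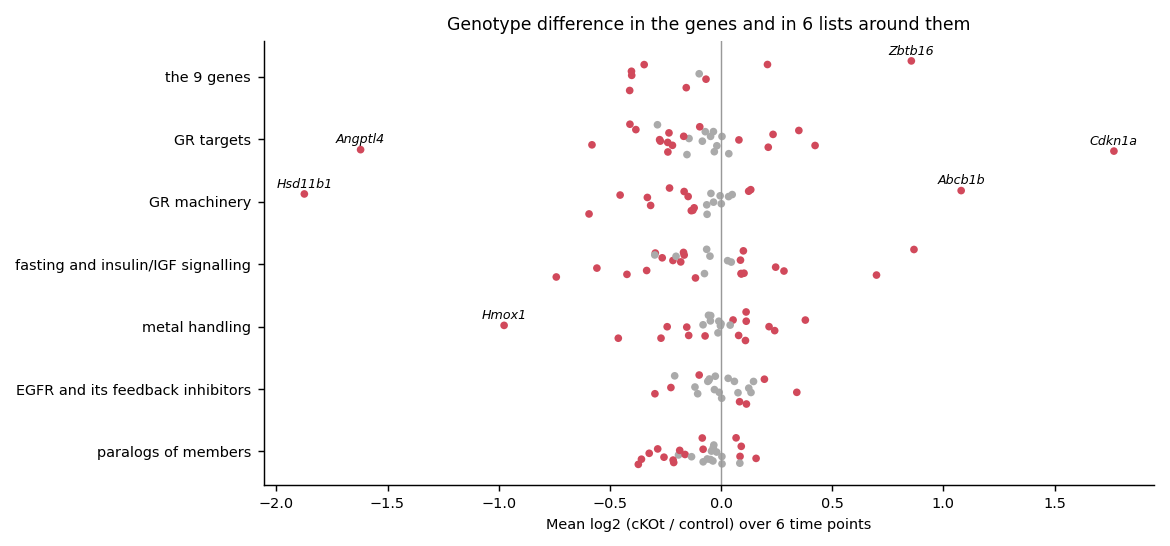
Mean log2 ratio of cKOt to control mice over the 6 times (horizontal axis) for the 9 genes and for each retained gene of 6 lists (rows). Red points passed an adjusted p of 0.05 and grey points did not, and the vertical scatter within a row has no meaning. Hsd11b1 (-1.87), Angptl4 (-1.62), Cdkn1a (1.77), and Abcb1b (1.08) lie furthest from 0.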

How the data were processed

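The authors counted reads per Ensembl gene in frozen half-kidneys (stranded poly(A) libraries, cutadapt 1.8, STAR 2.5.3a, HTSeq 0.9.1, GRCm38, per the labels) and deposited the raw counts. Lines of the counting program that name no gene (7.17% to 10.6% of uniquely aligned reads outside genes, 0.953% to 1.27% ambiguous) were left out. Per the methods, the authors chose the 5 mice of each group from 6, and 1 deposited cKOt sample (ZT16, replicate 4) is marked for removal in their sample sheet. It was kept under its label. Library batch (6 batches, each with both genotypes) and RNA integrity number (7.9 to 9.6) come from that sheet. The batches were not balanced between the genotypes at each time. At ZT8, for example, batch 6 held control mice only and batch 4 a cKOt mouse only.

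A gene was retained if any sample reached 1 CPM (15546 genes, of which 15538 had a GENCODE release M21 symbol). edgeR 4.0.16 in R 4.3.3 was fitted to all of them, with TMM library sizes, 12 groups, and 2 RUVs factors computed from log2 CPM (prior count 2), and with quasi-likelihood F tests and Benjamini-Hochberg adjustment over all genes. Rhythms were fitted with a 24-h period, with assignment to 1 of the 5 dryR models at a BIC weight of 0.65 or more. RUVs and dryR were rewritten, and the fit was checked on simulated data. Alternatives were DESeq2 1.42.0 and limma 3.58.1, other filters, scalings, and covariates, and fits without samples.

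The genes and lists were chosen with earlier results of these data known. Besides the 9 genes and Arntl, the text names up to 3 called genes in each direction per list (largest change, mean of at least 1 CPM) and, per gene, the 3 others with the most similar group means (mean of at least 5 CPM). One gene that this rule names is not reported here. Fkbp2, Fkbp9, and Fkbp11, the other called paralogs of Fkbp5 in its list, were named in addition, as were Igfbp3 and Igfbp5, the other called relatives of Igfbp1. Symbols were matched to RefSeq promoter windows (GRCm38.p6) for 7 of the 9 genes. Replicates are separate mice. The lowest ratio of squared differences between replicates to Poisson noise was 5.19 over 120 pairs. Replicate numbers do not pair mice, since the mean correlation of deviations was 0.00433 for the same number and -0.00103 for different numbers.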

Additional observations from a re-analysis of the deposited data

Results flagged for a closer look

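Among 108 sets of 5 mice (9 genes in 12 groups), 7 held a mouse whose gap to its nearest neighbour, divided by the range of the set, was above Dixon's limit of 0.71, which chance exceeds in about 1 set in 20. In cKOt mice these were the highest Tsc22d3 value at ZT12 (102 CPM), the highest Zbtb16 values at ZT8 (23.5 CPM) and ZT20 (36.6 CPM), the highest Klf9 value at ZT0 (225.4 CPM), and the lowest Mt2 value at ZT0 (3.00 CPM). In control mice these were the highest Mt1 values at ZT0 (11.8 CPM) and ZT16 (11.2 CPM).

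A change of the genotype difference over time was called for Tsc22d3 in the interaction over 6 times (edgeR adjusted p = 0.00194) and in the cosine terms (edgeR adjusted p = 0.000978), and for Igfbp1 in the cosine terms (edgeR adjusted p = 0.0415).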

How the results depend on the processing

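All 153 recomputed mean differences of the 9 genes kept their direction, 10 losing and 1 gaining a call. Of the recomputed counts, 287 stayed within 1.5 times and 45 did not, and the cause was not tested. At ZT8, ZT12, ZT16, and ZT20, 2, 2, 2, and 1 of the genes were called, and without RUVs factors 1, 0, 1, and 0 (2 at ZT12 and 1 at ZT20 at an unadjusted p under 0.05), with the library batch in their place 1, 0, 1, and 0 (unadjusted, 2 at ZT12 and 2 at ZT20), with no filter on low counts 1 at ZT8 and 1 at ZT12, and in limma-trend 1 at ZT8 and 2 at ZT20. Over fits without 1 replicate number or 1 mouse these counts ran from 1 to 2, 1 to 2, 0 to 2, and 0 to 2. Both counts of 0 came without replicate 3, where 3 genes had an unadjusted p under 0.05 at each time. The Zbtb16 difference at ZT20 (0.40) then ran from -0.28 to 0.87 (log2), and was -0.20 without the single high mouse. The count of interactions was 1, and became 3 with the replicate number as a block (Zbtb16, adjusted p = 0.0342, and Igfbp1, adjusted p = 0.037) and 2 in limma-trend, with 1 to 3 without single replicates or mice. The block changed no other count for the 9 genes. Same-numbered mice correlated between -0.208 and 0.234, and 12 of 60 mice correlated best with the same number in the other genotype at their time. The altered rhythms were 2, and 1 with no filter, without RUVs factors, with the batch, or without the marked sample (1 to 3 without replicates). Without RUVs correction 5 genes had a rhythm in control and 5 in cKOt mice, and 3 fell into model 4, in place of 8, 8, and 6, while model 5 held 1 to 3 genes without single replicates. Of the pairs between mice 3 passed, 0 after RUVs correction (9 unadjusted), 9 with the batch mean removed as well, 5 with Spearman's rho, and 3 to 5 without single replicates. Called receptor targets ran from 9 to 19. Over all genes, the interaction was called for 479, and for 263 without RUVs factors, 312 with the batch, and 298, 296, and 233 without replicate 2, 3, or 4. The altered rhythms were 677, and 342, 371, and (without replicate 1, 3, or 4) 422, 401, and 387. With no RUVs factors and with the batch, ZT0 went from 1884 to 983 and 1130, ZT8 from 3095 to 2013 and 1991, ZT16 from 3071 to 1853 and 1829, and ZT20 from 2140 to 1407 and 1419. ZT4 went from 1950 to 3091 with the batch, and the effect of time in cKOt mice from 4142 to 2608 without replicate 4. Fits without single mice were chosen after the data were seen. Counts as low as 2 per mouse limit Igfbp1 most.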
